A study of Mus musculus with 18 samples.

Results

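Ribosome biogenesis is the nuclear assembly line on which RNA polymerase I transcribes the ribosomal RNA precursor and many accessory proteins modify, cut and fold it into the small and large ribosomal subunits. Myc is a transcription factor that binds E-box sequences together with Max, and genes of ribosome biogenesis are among its best known targets, alongside genes of nucleotide synthesis and cell growth. In macrophages Myc is also an early response gene of growth factors and microbial signals.

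The set described here held 40 genes, chosen by gene name: Myc and 39 genes whose products work in the nucleolus or on pre-ribosomes. All 40 were found on the array and all 40 were among the 12257 genes that entered the tests. By role they were the transcription factor Myc, 3 RNA polymerase I subunits, 8 proteins of the box C/D and H/ACA small nucleolar ribonucleoproteins (snoRNPs, which methylate and pseudouridylate ribosomal RNA), 5 nucleolar phosphoproteins and helicases, 12 small-subunit factors and 11 large-subunit factors. Every member was also among the 7456 brighter genes, those above the 75th percentile of all values on at least 3 arrays, so the share of those genes that passed a test is given beside that of all genes where it helps.

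The study exposed RAW cells, an established mouse macrophage line, to R848 with or without apilimod and profiled total RNA on 18 arrays. R848 (resiquimod) is a small agonist of Toll-like receptor 7, apilimod is an inhibitor of the endosomal lipid kinase PIKfyve, and API09 was included by the study as an inactive analog of apilimod. Medium alone was sampled on 2 arrays at 0 h, and medium, R848, R848+apilimod and R848+API09 were each sampled on 1 array at 1, 3, 7 and 22 h. The dose in the labels is 1 uM for either compound and 0.1 mM for R848, so high for this agonist that the unit may be a slip.

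The labels name no genetic change, and apilimod was never given without R848. The labels do not say whether the arrays came from separate cultures, so the p-values measure the spread among these arrays and nothing beyond it, and that spread may be technical. Each arm and hour had 1 array, so 2 arrays per hour, that with R848 and that with R848+API09, served jointly as R848 controls. The spread came from the control pairs and the 2 arrays at 0 h, and every array without a partner was assumed to vary as those did. The comparison of R848 with medium and that of apilimod with its controls therefore share the control arrays, and their results are not independent of each other.

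Lyz2, Cd68 and Csf1r, macrophage markers, had intensities of 14533 to 17985, 4778 to 8931 and 2503 to 10504 over the 18 arrays. Of 12 macrophage markers 11 entered the tests, with Mrc1 near the level of the filter at 11.1 to 28.3 and Mertk below it. Of 16 markers of T cells, B cells, epithelium and fibroblasts, Cd3d, Cd3e, Epcam and Krt8 entered the tests, at 13.9 to 61.0. The R848+API09 array at 22 h stood apart: its upper quartile was 87.0, against 101 on the R848+apilimod array, 104 on the R848 array and 111 to 119 on the other 15. It also had the highest level of the array's 18S ribosomal RNA control probe sets, a mean log2 intensity of 10.53, followed by R848+API09 at 7 h at 10.14, with 7.94 to 9.45 elsewhere. Counts of members called at 22 h in the comparisons of R848 with medium and of apilimod with its controls are given with and without that array, as are the calls that were lost without it.

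The promoters of 34 members were in the RefSeq promoter table (GRCm38.p6), as windows from 250 bases before to 50 after the gene start; those of Myc, Fbl, Npm1, Bop1, Rrs1 and Rrp12 were not in it. The E-box CACGTG, which reads the same on both strands and is the site that Myc and Max prefer, stood in the windows of 8 of the 34, or 23.5%, and in 8.09% of all 27025 genes with a window. The 8 were Mybbp1a, Nle1, Nop2, Pes1, Tsr1, Utp18, Utp20 and Wdr43. The variant CACGCG, searched on both strands, stood in 10 of 34 windows, or 29.4%, and in 10.5% of all genes. The 27025 genes include many that did not enter the tests. Whether the shares of members differ from those of the other brighter genes was not tested. A match is a match of letters, and no binding was measured here.

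Of these windows, 5 are printed from 150 bases before to 30 after the start, for genes that were lower in the R848 controls than in medium at 22 h. The 5 were chosen without a set rule, so their share with CACGTG does not stand for that of the members. Only CACGTG is in capitals, and other forms of the E-box were not marked. Nop2 (chr6:125131733-125131912, plus strand), Pes1 (chr11:3963825-3964004, plus strand) and Nle1 (chr11:82908366-82908545, minus strand) carry CACGTG, beginning at position -60, 3 and 24 from the start. Dkc1 (chrX:75095704-75095883, plus strand) and Nop58 (chr1:59684856-59685035, plus strand) have no CACGTG in this stretch.
Nop2: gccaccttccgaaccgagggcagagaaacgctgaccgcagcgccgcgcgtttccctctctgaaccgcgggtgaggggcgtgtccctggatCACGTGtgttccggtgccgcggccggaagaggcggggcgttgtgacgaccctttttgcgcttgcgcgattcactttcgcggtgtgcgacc
Pes1: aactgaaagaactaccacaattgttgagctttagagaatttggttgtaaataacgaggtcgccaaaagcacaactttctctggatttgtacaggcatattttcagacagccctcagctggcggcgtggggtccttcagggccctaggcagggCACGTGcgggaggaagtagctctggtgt
Nle1: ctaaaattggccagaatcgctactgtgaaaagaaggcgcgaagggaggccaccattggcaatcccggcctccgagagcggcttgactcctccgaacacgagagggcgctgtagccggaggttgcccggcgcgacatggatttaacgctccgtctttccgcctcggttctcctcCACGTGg
Dkc1: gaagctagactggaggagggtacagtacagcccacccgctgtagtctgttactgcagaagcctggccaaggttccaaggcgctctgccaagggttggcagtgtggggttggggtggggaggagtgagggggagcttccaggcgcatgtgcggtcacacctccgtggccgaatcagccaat
Nop58: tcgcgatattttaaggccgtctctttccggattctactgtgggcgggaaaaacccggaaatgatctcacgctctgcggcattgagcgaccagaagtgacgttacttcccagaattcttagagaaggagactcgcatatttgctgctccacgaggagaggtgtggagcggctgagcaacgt

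Myc was higher with R848 than in medium at 3, 7 and 22 h, and at 7 h it was lower with R848+apilimod than in the R848 controls. Intensity of Myc in medium was 130.2 and 125 at 0 h, 148 at 1 h, 348 at 3 h, 133 at 7 h and 34.0 at 22 h. With R848 it was 223, 898, 696 and 257 at 1, 3, 7 and 22 h, and with R848+API09 251, 965, 714 and 194. With R848+apilimod it was 213, 888, 356 and 281.

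All 3 stimulated arrays lay above the medium array at each hour. The apilimod array lay below both controls at 1, 3 and 7 h, by a wide margin at 7 h only, and above both at 22 h. Medium alone had its own peak, with the 3 h array above every other medium array.

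**Figure D1:**
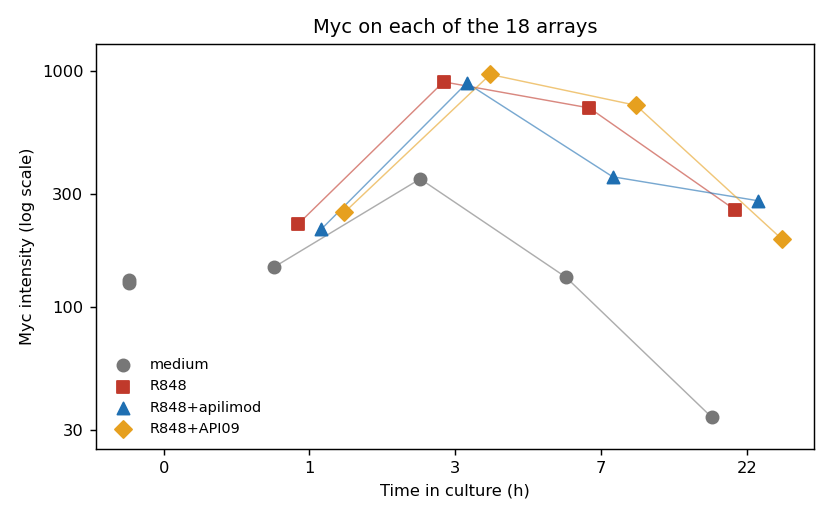
Intensity of Myc (log scale) on each of the 18 arrays against hours in culture, with 1 point per array, colours for the arms and lines joining the arrays of an arm from 1 h on. The 3 stimulated arms lie together at 1 and 3 h, and at 7 h the R848+apilimod array (356) lies between medium (133) and the R848 controls (696 and 714).

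On the log2 scale, with 16 added to each intensity, the R848 controls exceeded medium by 0.63 ± 0.14 at 1 h (SE from limma's fit over all genes; adjusted p = 0.109), 1.38 ± 0.14 at 3 h (adjusted p = 4.13e-05), 2.27 ± 0.14 at 7 h (adjusted p = 4.78e-07) and 2.26 ± 0.14 at 22 h (adjusted p = 4.81e-07). A gene is said to have passed the test, risen or fallen where limma's p, adjusted by Benjamini-Hochberg over all 12257 genes, was under 0.05. The Myc difference was larger at 7 h than at 3 h by 0.89 ± 0.20 (interaction, limma adjusted p = 0.0180), where the change was called higher for 3.8% of all genes and lower for 3.92%; no other member had a called change between these hours. Between 7 and 22 h it changed by -0.01 ± 0.20 while the levels in medium, R848 and R848+API09 were all lower at 22 h. The 1 h difference passed the test without the R848+API09 array at 22 h (limma adjusted p = 0.00459), and the change from 3 to 7 h did not with either control taken alone.

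Against the R848 controls, apilimod left Myc lower by 0.96 at 7 h (log2 difference -0.96 ± 0.14, limma adjusted p = 0.000429). That array was still above medium, by 1.32 ± 0.16 (limma adjusted p = 8.27e-05). At 1 and 3 h the differences from the controls were -0.14 ± 0.14 and -0.07 ± 0.14, with 95% intervals of -0.45 to 0.16 and -0.37 to 0.24, and neither passed the test. At 22 h the difference was 0.31 ± 0.14 (limma adjusted p = 0.108); it was 0.50 from the R848+API09 array alone and 0.12 from the R848 array alone, each a difference between single arrays. The apilimod difference changed between 3 and 7 h by -0.89 ± 0.20 (limma adjusted p = 0.0260; 2.52% of all genes became lower and 2.24% higher, and no other member was called) and between 7 and 22 h by 1.27 ± 0.20 (limma adjusted p = 0.00119). The first of these changes was no longer called when either 0 h array was left out or either control was used by itself.

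In medium, Myc rose between 0 and 3 h by 1.34 ± 0.14 (limma adjusted p = 0.00114) and was below its 0 h level at 22 h (log2 difference -1.52 ± 0.14, limma adjusted p = 5.93e-05). At 7 h it differed from 0 h by 0.05 ± 0.14. No other member passed the test between medium at 3 h and at 0 h, where 0.514% of all genes were called higher.

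The 39 other members spanned a narrower range of log2 differences than Myc, with their highest medians at 3 to 7 h and their lowest at 22 h. Set against the mean of the 2 medium arrays at 0 h, their median log2 difference was within 0.03 of 0 on the arrays at 1 h. At 3 h it was 0.07 in medium, 0.21 with R848, 0.22 with R848+API09 and 0.12 with R848+apilimod, and at 7 h 0.09, 0.30, 0.27 and 0.12 in the same order. At 22 h it was -0.36 in medium, -0.56 with R848, -0.76 with R848+API09 and -0.81 with R848+apilimod. The R848+apilimod array at 22 h held the lowest value of all 18 for 26 of the 39, and the R848+API09 array at 22 h for 11. The highest value came at 7 h with R848+API09 for 13 and with R848 for 12.

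**Figure D2:**
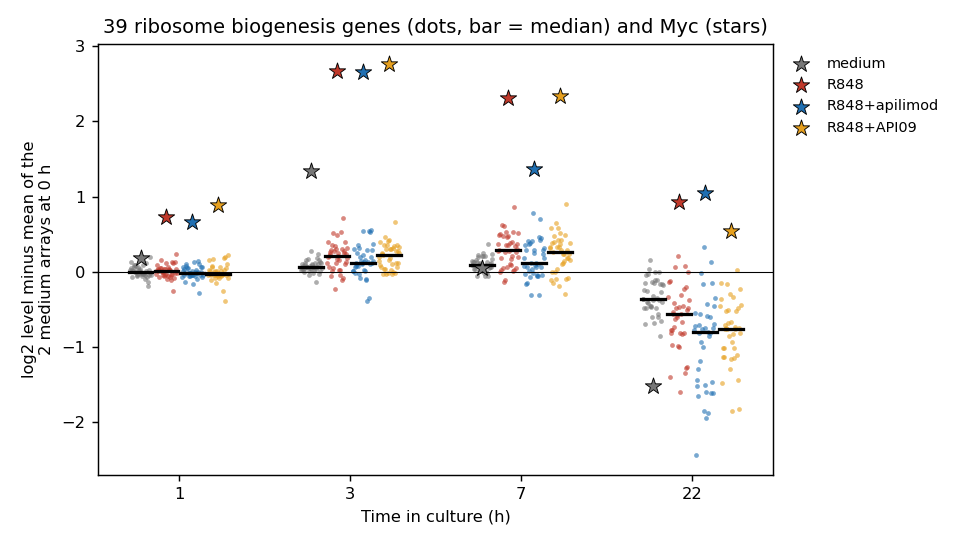
Log2 level minus the mean of the 2 medium arrays at 0 h (vertical axis) on each later array, grouped by hours in culture. Dots are the 39 ribosome biogenesis genes, bars their medians and stars Myc; at 22 h the bars lie at -0.36, -0.56, -0.81 and -0.76 in medium, R848, R848+apilimod and R848+API09, while Myc stays above its 0 h level in the 3 stimulated arms.

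In bulk RNA, fewer cells that express a gene and less RNA per cell cannot be told apart, and this holds for every level given here.

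R848 was first set against medium, hour by hour, for the members by role. At 1 h no member passed the test, against 0.636% of all genes called higher and 0.0653% called lower, and 1 member, Myc, had an unadjusted limma p under 0.05. At 3 h 5 of 40 members rose (12.5%; 6.23% of all genes and 8.7% of the brighter ones rose) and none fell (9.19% of all genes fell). Besides Myc they were Rrp9, a protein of the U3 snoRNP, at 0.50 ± 0.09, Nle1, a factor of late large-subunit maturation, at 0.42 ± 0.09, Noc3l at 0.38 ± 0.09 and the RNA helicase Ddx21 at 0.29 ± 0.09 (log2 differences; limma adjusted p = 0.00213, 0.00731, 0.0119 and 0.0439). The member median was 0.13 and that of all genes -0.03. Of 12 alternatives, not counting a minimum log2 difference, the call of Ddx21 was lost in 7, that of Noc3l in 3 and that of Nle1 in 1.

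At 7 h 10 of 40 members rose (25% of them; 11.3% of all genes and 15.7% of the brighter ones rose) and 1 fell (18.5% of all genes fell). The median was 0.19 over members and -0.04 over all genes. None of the 3 RNA polymerase I subunits passed the test. Of the 8 snoRNP proteins, Rrp9 rose by 0.51 ± 0.09 and Nop58, a core protein of box C/D snoRNPs, by 0.37 ± 0.11, while Nhp2 of the H/ACA snoRNPs fell by 0.31 on the log2 scale.

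Of the 5 nucleolar phosphoproteins and helicases, Ddx21 rose by 0.44 ± 0.09 and Mybbp1a by 0.31 ± 0.09. Of the 12 small-subunit factors, the processome scaffold Heatr1 rose by 0.48 ± 0.11 and Rrp12 by 0.38 ± 0.09. Of the 11 large-subunit factors, Noc3l rose by 0.46 ± 0.09, Ftsj3, a ribosomal RNA methyltransferase, by 0.41 ± 0.13 and Nle1 by 0.41 ± 0.09. Leaving out the R848+API09 array of 22 h raised the number of risen members to 8 at 3 h (20%; 9.24% of all genes rose) and 19 at 7 h (47.5%; 15.5% of all genes rose), with 1 fallen at 7 h; the array enters the fits of these hours only through the spread, so the differences were the same. Centring each array on its median gave 12 risen members at 3 h (30%; 9.05% of all genes) and 21 at 7 h (52.5%; 16% of all genes). Quantile normalization gave 18 at 7 h (45%; 13.7% of all genes), and 1 member fell at 7 h under both scalings. Against medium, the R848 arrays by themselves gave 3 risen members at 3 h (7.5%; 4.76% of all genes). The R848+API09 arrays by themselves gave 2 at 3 h (5%; 4.56% of all genes) and 7 at 7 h (17.5%; 9.12%). Of the 11 calls at 7 h, 6 held in all 12 alternatives. Those of Nop58 and Mybbp1a were lost against either control alone. That of Noc3l was lost with probe sets averaged (0.21), and its second probe set gave -0.03. That of Ftsj3 was lost with a pseudocount of 1 and with R848+API09 alone as the control (0.36). The Nhp2 call was lost with R848+API09 alone as the control (-0.29).

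Rrp9 shows what a rise of this size looks like on the arrays. Its intensity was 393 in medium, 574 with R848, 553 with R848+API09 and 504 with R848+apilimod at 3 h. At 7 h it was 449, 638, 652 and 566 in the same order. All 3 stimulated arrays were above medium at both hours, and the apilimod array was the lowest of the 3. At 22 h the 4 arrays read 344, 361, 348 and 377, and no difference was called.

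At 22 h most members were lower with R848 than in medium, Myc being the main exception. Of 40 members 22 fell (55%; 29.1% of all genes and 38.4% of the brighter ones fell) and 2 rose (5%; 16.5% of all genes rose). The member median was -0.34 and that of all genes -0.03. Of the RNA polymerase I subunits, Polr1b, the second largest, fell by 0.64 ± 0.14 and Polr1e by 0.50 ± 0.14. Polr1a, the largest, also passed the test, at -0.35 ± 0.12, but that call was lost in 9 of 12 alternatives, and without the R848+API09 array at 22 h its difference was -0.18 (limma adjusted p = 0.0758).

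Of the 8 snoRNP proteins 7 fell, with a median over the 8 of -0.64, the lowest of the role groups. Nop58 fell by 1.04 ± 0.11, Dkc1, the pseudouridine synthase of H/ACA snoRNPs, by 0.96 ± 0.14, the methyltransferase fibrillarin (Fbl) by 0.76 ± 0.10 and Nop56 by 0.72 ± 0.09. Gar1, Nolc1 and Nhp2 fell by 0.57, 0.54 and 0.44, and Rrp9 differed by 0.04.

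Of the 5 nucleolar phosphoproteins and helicases, Gnl3 (nucleostemin) fell by 0.85 ± 0.11 and Ncl (nucleolin) by 0.33 ± 0.08. Of the 12 small-subunit factors 5 fell, Utp20 by 0.90 ± 0.18, Tsr1 by 0.51 ± 0.10, and Heatr1, Utp18 and Wdr75 by 0.38, 0.37 and 0.24. The Wdr75 call was lost in 7 of 12 alternatives, with -0.21 without the R848+API09 array at 22 h (limma adjusted p = 0.0634) and -0.02 after median centring. Median centring also ended the calls of Heatr1 (-0.16), Utp18 (-0.14) and, among the phosphoproteins, Ncl (-0.10). Wdr43, a processome protein, rose by 0.29 ± 0.11 against most of that group; its second probe set gave -0.67 and the call was lost in 6 of 12 alternatives. Of the 11 large-subunit factors 5 fell: Rrs1 by 0.85 ± 0.11, Nle1 by 0.73 ± 0.09, the methyltransferase Nop2 by 0.71 ± 0.09, Pes1 by 0.69 ± 0.11 and Wdr12 by 0.48 ± 0.13. Pes1, Wdr12 and Bop1 form 1 complex needed for the large subunit, and Bop1 differed by -0.03.

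Limma adjusted p-values of the members named as fallen at 22 h lay between 2.86e-05 (Nop58) and 0.0448 (Wdr75). Without the R848+API09 array at 22 h, 20 members fell and 4 rose (50% and 10%; 26.7% and 20.5% of all genes). With each array centred on its median, which moved the all-gene median at 22 h from -0.03 to 0.19, 17 fell and 7 rose (42.5% and 17.5%; 18.9% and 36.8% of all genes). With quantile normalization 22 fell and 4 rose (55% and 10%; 24.3% and 26.5% of all genes). Under those scalings the member median was -0.12 and -0.21 where that of all genes was 0.19 and 0.05.

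Between 7 and 22 h the R848 difference itself became lower for 23 of 40 members by the interaction test and higher for none, where 15.1% of all genes became lower and 10.3% higher. The median change was -0.53 over members and 0.02 over all genes. It was -1.41 ± 0.16 for Nop58 (limma adjusted p = 0.000145), -1.14 ± 0.13 for Nle1 (0.000149) and -1.12 ± 0.25 for Utp20 (0.00878). Without the R848+API09 array at 22 h, 26 members became lower (65%; 16.6% of all genes) and none higher, and 22 of the 23 calls were kept, that of Polr1e being lost.

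The levels of Nop58 show both phases. It stood at 1285 and 1278 in medium at 0 h and between 1233 and 1581 on the arrays at 1 and 3 h. At 7 h its intensity was 1313 in medium, 1683 with R848, 1727 with R848+API09 and 1390.5 with R848+apilimod. At 22 h it was 792 in medium, 412 with R848, 344 with R848+API09 and 319.7 with R848+apilimod. The stimulated arrays were thus above medium at 7 h and below it at 22 h, when medium itself had fallen.

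The medium arrays show how the unstimulated culture moved. At 1 and 7 h no member passed the test against 0 h, where 0.261% and 0.139% of all genes rose. At 22 h 22 of 40 members fell (10.8% of all genes and 16.3% of the brighter ones fell) and none rose (11.2% of all genes rose), with a member median of -0.36 against 0.01 for all genes. Besides Myc, the members with the largest falls were Tsr1, which fell by 0.85 ± 0.10, Ftsj3 by 0.70 ± 0.13, Nop58 by 0.68 ± 0.11, Utp20 by 0.65 ± 0.18, Nolc1 by 0.61 ± 0.13 and Rrp12 by 0.60 ± 0.09. This count rests on the pair of 0 h arrays: with either left out, 10 members fell (25%; 5.33% or 5.48% of all genes fell).

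**Figure D3:**
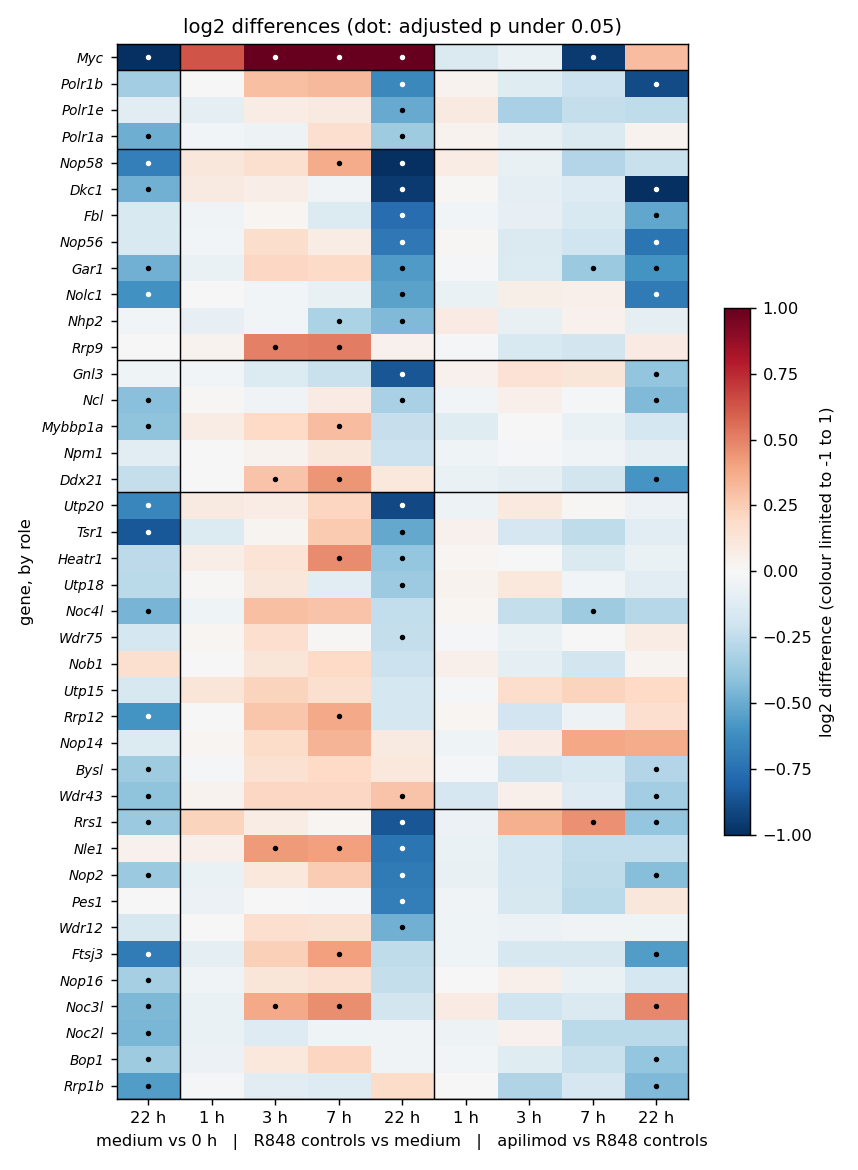
Log2 differences of the 40 members (lines, grouped by role and ordered within a role by the R848 difference at 22 h) for medium at 22 h against 0 h, the R848 controls against medium and apilimod against the R848 controls at 1, 3, 7 and 22 h; colours are limited to -1 to 1 and a black or white dot marks a limma adjusted p under 0.05. In the R848 and apilimod blocks, dots for lower values are concentrated at 22 h, the only hour that the medium block shows. The box C/D and H/ACA snoRNP group has 7 of 8 lower under R848 and 5 of 8 under apilimod at 22 h.

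Apilimod was then set against the R848 controls. At 1 h no member and no other gene of the 12257 passed limma's test (165 genes had an unadjusted p under 0.05), and at 3 h no member did, where 5.07% of all genes rose and 4.12% fell. The member median at 3 h was -0.08, that of all genes -0.03, and 4 members had an unadjusted limma p under 0.05. The apilimod array was below both control arrays for 18 of 40 members at 1 h and 27 at 3 h, against 31% and 47.9% of all genes.

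At 7 h 3 members were lower with apilimod and 1 was higher (7.5% and 2.5% of them; 9.81% of all genes fell and 9.81% rose), so in this fit the share of members called was no larger than that of all genes. The fall of Myc was the largest of the 4. Among the others, Gar1 of the H/ACA snoRNPs fell by 0.37 ± 0.09 (limma adjusted p = 0.0161) and Noc4l, a small-subunit processome factor, by 0.36 ± 0.11 (0.0498). Rrs1, which helps load the 5S ribonucleoprotein onto the large subunit, rose by 0.46 ± 0.11 (0.0140), where 10 of the 11 large-subunit factors had a negative difference. Its second probe set gave 0.52.

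Most other members had small negative differences at 7 h. The member median was -0.15 and that of all genes -0.02, and 33 of 40 differences were below 0. The apilimod array was below both controls for 28 members and above both for 5, against 44.5% and 36.9% of all genes. None of the RNA polymerase I subunits and none of the nucleolar phosphoproteins and helicases passed the test at 7 h.

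Gar1 stood at 1292 and 1315 in medium at 0 h. At 1 h its intensity was 1358 in medium, 1329 with R848, 1285 with R848+apilimod and 1269 with R848+API09, and at 3 h 1340.1, 1565, 1412 and 1541 in that order. At 7 h it was 1339.9, 1486, 1178 and 1573, and at 22 h 928, 656, 405 and 588. The apilimod array was below both controls at 3, 7 and 22 h and below medium as well at 7 and 22 h.

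Noc4l had 683 and 684 in medium at 0 h. At 1 h it had 687 in medium, 664 with R848, 677 with R848+apilimod and 672 with R848+API09, and at 3 h 711, 847, 739.8 and 909. At 7 h it had 739, 880.1, 702 and 926, and at 22 h 490.1, 455, 335 and 372. Its apilimod array was close to medium at 3 and 7 h, with both controls above.

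Rrs1 took the other direction. It had 2054 and 2031 in medium at 0 h, and at 1 h 1952 in medium, 2218 with R848, 2187 with R848+apilimod and 2335 with R848+API09. At 3 h it had 2196, 2426, 2967 and 2216, and at 7 h 1972, 2080.1, 2748 and 1910.3 in that order. The apilimod array was the highest at both hours, and at 22 h, with 1574, 794, 658 and 939, it was the lowest. The change of its apilimod difference from 7 to 22 h was -0.85 ± 0.16 (limma adjusted p = 0.00399). Rrs1 is read here by a probe set of a type that can also detect related transcripts. The probe set of Polr1e is of the same type. Those of Gar1, Nop56, Fbl, Nhp2 and Tsr1 are of a type that can match several transcripts.

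The calls at 7 h other than that of Myc depended on the fit. Against the R848 array by itself, only Myc was called (7.22% of all genes fell and 7.49% rose). With quantile normalization 10 members were lower and 1 higher (25% and 2.5%; 12.5% and 11.2% of all genes). Without the R848+API09 array at 22 h 10 were lower and 2 higher (25% and 5%; 15% and 13.9% of all genes). Under those 2 fits the share of members that fell was thus above that of all genes. The Noc4l call was lost in 7 of 12 alternatives. The Myc call held in every alternative but the demand for a log2 difference of at least 1.

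At 22 h apilimod and the R848 controls differed for 17 members, of which 16 were lower with apilimod (40%; 14.3% of all genes and 20.2% of the brighter ones fell) and 1 was higher (2.5%; 20.2% of all genes and 24.9% of the brighter ones rose). The median was -0.23 over members and 0.03 over all genes. The apilimod array was below both controls for 26 members and above both for 7, against 34.4% and 42% of all genes. Of the RNA polymerase I subunits, Polr1b fell by 0.90 ± 0.14 (limma adjusted p = 0.000485), while Polr1e differed by -0.25 and Polr1a by 0.04.

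The snoRNP proteins again had the lowest median, -0.56, with 5 of 8 fallen. Dkc1 fell by 1.00 ± 0.14 (limma adjusted p = 0.000233), Nop56 by 0.73 ± 0.09 (8.9e-05), Nolc1, a chaperone of snoRNPs, by 0.71 ± 0.13, Gar1 by 0.60 ± 0.09 and Fbl by 0.52 ± 0.10. Nop58, the member with the lowest R848 difference, differed by -0.23 and did not pass the test. Of the nucleolar phosphoproteins and helicases Ddx21 fell by 0.59 ± 0.09, Ncl by 0.44 ± 0.08 and Gnl3 by 0.39 ± 0.11.

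The small-subunit factors had the median nearest to 0, -0.06, with 2 of 12 fallen, Wdr43 by 0.35 ± 0.11 and Bysl by 0.30 ± 0.10. Among 11 large-subunit factors 5 fell, Ftsj3 by 0.56 ± 0.13, Rrp1b by 0.44 ± 0.14, Nop2 by 0.43 ± 0.09, and Bop1 and Rrs1 by 0.38 each. Of these calls, that of Rrs1 was lost without the R848+API09 array at 22 h (-0.27, limma adjusted p = 0.0506) and after median centring, and those of Bysl and Rrp1b were lost against the R848+API09 array alone (-0.18 and -0.30) and with probe sets averaged, and in 5 and 2 of 12 alternatives in all. Noc3l, which works with Noc2l on large-subunit precursors, rose by 0.48 ± 0.09 (limma adjusted p = 0.00144) against most of its group, and its second probe set gave 0.40. Differences between role groups were not tested.

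**Figure D4:**
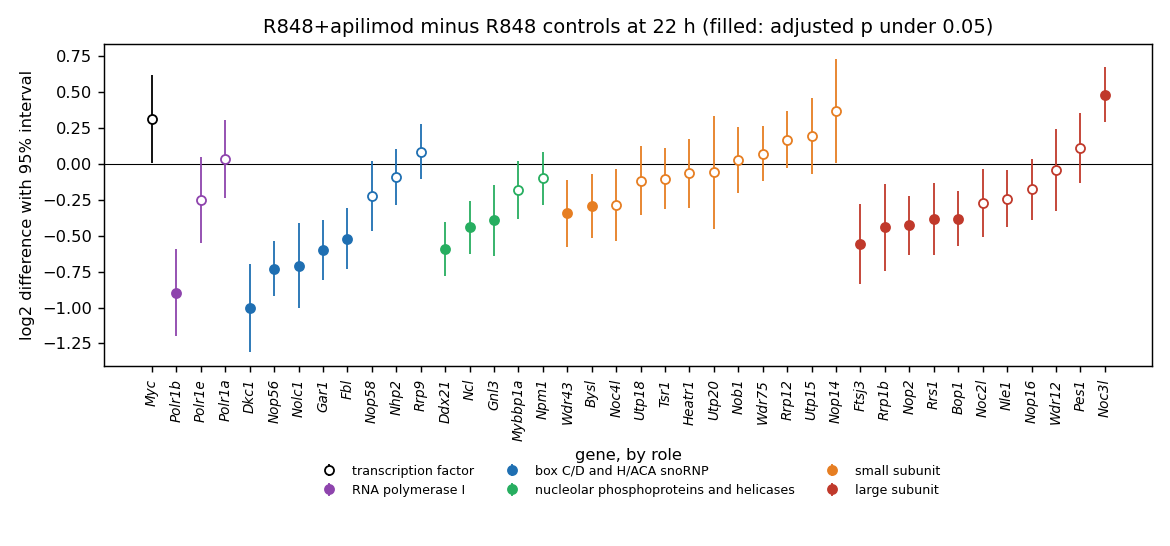
Log2 difference between R848+apilimod (1 array) and the R848 controls (2 arrays) at 22 h for each of the 40 members, with 95% intervals from limma's fit, coloured by role; filled points have an adjusted p under 0.05. Dkc1 and Polr1b (-0.90) lie lowest, Noc3l (0.48) is the single filled point above 0, and Myc (0.31) is open.

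Dkc1 and Polr1b show the size of the falls. Dkc1 lay between 1383 and 1832 on the arrays at 0 to 7 h. At 22 h its intensity was 1063 in medium, 554 with R848, 526 with R848+API09 and 261 with R848+apilimod. Polr1b lay between 254 and 386 up to 7 h, and at 22 h it had 204, 142, 110.2 and 59.7 in the same order. In both genes the 22 h arrays were ranked medium, R848, R848+API09 and R848+apilimod, and the 2 other probe sets of Dkc1 gave apilimod differences of -0.93 and -1.35.

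Because the R848+API09 array at 22 h stands apart, the controls were also taken singly. Against R848 alone, which at this hour is the same as leaving that array out, 22 members were lower with apilimod and 1 higher (55% and 2.5%; 20.4% and 19% of all genes). Against R848+API09 alone 14 were lower and 6 higher (35% and 15%; 16.8% and 31% of all genes). These fits compare single arrays at 22 h, with the spread taken from the pairs at the other hours. The R848+API09 array at 22 h was itself below the R848 array for most members, with a median difference of -0.21, against -0.12 for all genes, and 27 of 40 members within 0.25. The 3 stimulated arrays at 22 h had upper quartiles of 87.0 to 104 against 116 in medium, and 18S control levels of 8.69 to 10.53 against 7.94; the part of these in the results was not tested.

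Set against medium of the same hour, the R848+apilimod arrays had 3 members higher at 3 h (Myc, Rrp9 and Rrs1; 6.91% of all genes rose) and 6 higher at 7 h (Myc, Nop14, Rrs1, Rrp9, Noc3l and Rrp12; 12.3% rose), with none lower at either hour. Leaving out either 0 h array cut these to 1 at 3 h (6.1% of all genes) and 3 at 7 h (11.1%). At 1 h no member was called (0.547% of all genes rose and 0.0571% fell), and 9.64% of all genes fell at 3 h. At 22 h 27 of 40 were lower (67.5%; 25.8% of all genes and 35.2% of the brighter ones fell) and 2, Myc and Noc3l, were higher (21.5% of all genes rose). With the probe sets of a gene averaged, Noc3l differed from medium by 0.03 at 7 h and 0.02 at 22 h, and neither call was kept. Both Noc3l calls were also lost with a variance trend and robust fitting, and when either 0 h array was left out. The log2 difference from medium at 22 h was -1.96 ± 0.16 for Dkc1, -1.54 ± 0.16 for Polr1b, -1.44 ± 0.10 for Nop56, -1.28 ± 0.11 for Fbl, -1.27 ± 0.13 for Nop58 and -1.25 ± 0.15 for Nolc1. On the same array Myc was higher than in medium by 2.57 ± 0.16 (limma adjusted p = 3.65e-07).

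Between 7 and 22 h the apilimod difference became lower for 8 members (8.77% of all genes) and higher for 2 (11.3%), Myc and Noc3l. The change was -0.87 ± 0.20 for Dkc1, -0.76 ± 0.19 for Nolc1, -0.68 ± 0.19 for Polr1b and 0.62 ± 0.12 for Noc3l. Leaving out either 0 h array, 6 of these 10 changes were called (4 lower and 2 higher; 7.21% and 8.79% of all genes). Without the R848+API09 array at 22 h, all 10 were kept among 10 lower and 2 higher (25% and 5%; 14.1% and 13.2% of all genes).

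Apilimod and API09 were given at the same dose and times, so they could also be compared over the 4 hours, with hour as a block and 4 arrays in each arm. Of 3 pairs of stimulated arms compared, none had a member or any other gene that passed limma's test. The fit takes a difference to be the same at every hour, so a difference that changes with hour adds to its spread. Unadjusted p under 0.05 was found for 4 members and 1613 of all genes between apilimod and API09, for 4 and 1588 between apilimod and R848 alone, and for 0 and 182 between API09 and R848 alone. Myc differed by -0.20 between apilimod and API09 (95% interval -0.82 to 0.41), by -0.22 between apilimod and R848 alone (-0.84 to 0.39) and by -0.02 between API09 and R848 alone (-0.64 to 0.59).

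Over hours, apilimod minus API09 ranged from -0.26 (Gar1, 95% interval -0.59 to 0.07) to 0.30 (Nop14, 0.08 to 0.53) among members, with a median of -0.08. API09 minus R848 alone ranged from -0.21 (Nop14, -0.44 to 0.02) to 0.06 (Noc2l, -0.09 to 0.22), with a median of -0.05. These intervals leave room for differences of the size seen in single hours, and they do not show that the compounds act alike. Hour by hour, API09 differed from R848 alone by a member median of -0.02 at 1 h, 0.01 at 3 h and -0.04 at 7 h, with 40, 40 and 38 of 40 members within 0.25. R848 alone against medium over hours was called for Myc alone, at 1.65 ± 0.28 (limma adjusted p = 0.0191), where 0.8% of all genes rose. That call was lost without the arrays of 3 h, of 7 h or of 22 h.

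The members called at no hour for the R848 controls against medium or apilimod against those controls were Nob1, Noc2l, Nop14, Nop16, Npm1 and Utp15. In other comparisons, R848+apilimod had Nop14 higher than medium at 7 h and Npm1 lower at 22 h. Noc2l and Nop16 were lower in medium at 22 h than at 0 h. The calls of Npm1, Noc2l and Nop16 were not kept in every alternative. Npm1 (nucleophosmin) lay between 9970.4 and 11221 up to 7 h and had 9644 in medium, 8385 with R848, 8209 with R848+API09 and 7735 with R848+apilimod at 22 h. Its differences at 22 h were -0.22 ± 0.08 for R848 (limma adjusted p = 0.054) and -0.10 ± 0.08 for apilimod. Nop14, a processome factor, differed by 0.38 ± 0.16 at 7 h and 0.37 ± 0.16 at 22 h under apilimod, without passing the test. Nob1, the endonuclease that makes the end of 18S ribosomal RNA, differed by -0.21 ± 0.10 under R848 at 22 h.

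Of the members, 25 had more than 1 kept probe set. At 22 h the R848 differences of 6 of them (Bop1, Bysl, Ddx21, Ncl, Rrp1b and Wdr43) had opposite signs between probe sets, beyond 0.25 on both sides for Wdr43 alone. The apilimod differences at 22 h had opposite signs for 8 (Bysl, Heatr1, Ncl, Nop16, Pes1, Polr1a, Rrp1b and Wdr12), beyond 0.25 on both sides for none. For Ncl, called lower under apilimod at 22 h, the kept probe sets gave -0.60 to 0.01. When the probe sets of a gene were averaged, Ddx21 fell by 0.27 and Rrp1b by 0.61 at 22 h under R848, where their brightest probe sets had given 0.11 and 0.18.

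Other genes of the same machinery were followed by lists, whose counts are to be read against the shares of all 12257 genes: under R848 6.23%, 11.3% and 16.5% rose at 3, 7 and 22 h and 9.19%, 18.5% and 29.1% fell, and under apilimod 9.81% rose and 9.81% fell at 7 h and 20.2% rose and 14.3% fell at 22 h. Of 77 further ribosome biogenesis genes tested, those that rose under R848 at 3, 7 and 22 h numbered 6, 13 and 6, and those that fell 0, 1 and 35; their medians were 0.13, 0.11 and -0.27. Under apilimod 2 rose and 7 fell at 7 h, and 5 rose and 16 fell at 22 h, with medians of -0.10 at both hours. The largest apilimod difference among them at 7 h was that of Bms1, a GTPase of the small-subunit processome, which fell by 0.71 ± 0.09 (limma adjusted p = 0.000168), from 2062 with R848 and 1993 with R848+API09 to 1234, against 1805 in medium. Ddx51 and Rrp15 fell by 0.40 and 0.38.

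Of 12 further RNA polymerase I factors, 7 fell and none rose under R848 at 22 h, and 2 fell at 7 h and 3 at 22 h under apilimod, with 1 risen at 22 h. Ubtf, the factor that keeps ribosomal DNA open for transcription, fell under R848 by 0.54 ± 0.11 at 7 h and 0.98 ± 0.11 at 22 h, and was lower with apilimod than in the controls by 0.52 ± 0.11 and 0.68 ± 0.11 at those hours. Its intensity at 22 h was 364 in medium, 195 with R848, 160.2 with R848+API09 and 104 with R848+apilimod. Znrd1, a polymerase I subunit, fell by 0.36 under apilimod at 7 h.

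Of 21 RNA polymerase III factors tested, 13 fell and 1 rose under R848 at 22 h, while 5 rose and 1 fell under apilimod, with medians of -0.47 and 0.21. Of 78 cytosolic ribosomal protein genes 42 entered the tests; 1 rose and 2 fell under R848 at 22 h, 3 rose under apilimod, and the medians were -0.07 and -0.03. Rps25 fell by 0.38 under apilimod at 7 h.

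The list of Myc network factors, not all of which pair with Myc, had 12 genes tested. Of these 4 rose and 3 fell under R848 at 7 h, while apilimod had 2 lower at 7 h and 3 higher at 22 h. Mxd1, a repressor that competes with Myc for Max, rose at 7 h by 1.06 ± 0.16 under R848 (limma adjusted p = 0.000354) and fell by 0.80 ± 0.16 under apilimod at the same hour (limma adjusted p = 0.00341). Its intensity at 7 h was 39.8 in medium, 94.5 with R848, 107 with R848+API09 and 51.0 with R848+apilimod. Mlxip fell by 0.49 ± 0.15 under apilimod at 7 h.

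Of 36 Myc targets outside the ribosome, 2 rose and 9 fell under R848 at 7 h, where 25% of the list and 18.5% of all genes (25% of the brighter ones) fell. At 22 h 3 rose and 20 fell, 55.6% of the list against 29.1% of all genes. Under apilimod 3 rose and 1 fell at 7 h (8.33% and 2.78%; 9.81% of all genes in either direction). At 22 h 2 rose and 15 fell, the latter 41.7% of the list against 14.3% of all genes, with a median of -0.25. The 4 called at 7 h were Cdk4, Apex1 and Shmt2, higher by 0.37, 0.36 and 0.34, and Ccnd2, lower by 0.36. The other 32 tested did not pass at 7 h under apilimod.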

How the data were processed

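The 18 arrays (mouse 430 2.0, biotin-labelled RNA amplified with NuGEN's Ovation system, per the labels' protocols) were used as deposited: 1 linear intensity per probe set and array, with no background correction, summarisation or normalization method given in the sources used here. The submitters' processing notes name limma, without a version. Median intensities of 17.5 to 19.2 were read as values the authors had already scaled.

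Probe sets with 1 gene symbol had to exceed 18.1 (the overall median) on 3 or more arrays. Where a gene had several, the one brightest on average was used. Tests used limma 3.58.1 (R 4.3.3) on log2(intensity + 16), which understates changes of dim genes; the fit by hour has 5 residual degrees of freedom, p-values are two-sided, and ± marks an SE. The fit over hours has arm and hour as terms. The small number of arrays limits the precision. The fits were tested on simulated data.

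Groups follow the sample titles. For each role, hour and comparison the text names the 2 called members with the largest difference and called members against their group; Myc and the first named member of each role at 7 h under apilimod have every array's value. From each other list up to 4 genes with the largest apilimod difference at 7 h were considered. Members and lists were chosen with earlier results of these data known, and other genes and values were named after being seen. Alternatives were scaling, filter, pseudocount, probe set rule, variance model, a minimum difference, the choice of control, and arrays left out.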

Additional observations from a re-analysis of the deposited data

Results flagged for a closer look

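The interaction tests that passed are gathered here, as log2 changes of a difference between hours. From 7 to 22 h the R848 difference became lower for 23 members, by more than the spread between arrays allowed. Of all genes, 15.1% became lower and 10.3% higher. Among RNA polymerase I subunits the change was -0.97 for Polr1b and -0.59 for Polr1e. Among snoRNP proteins it was -1.41 for Nop58, -0.92 for Dkc1, -0.79 for Nop56, -0.76 for Gar1, -0.63 for Fbl and -0.46 for Rrp9. Among nucleolar phosphoproteins it was -0.63 for Gnl3, -0.53 for Mybbp1a and -0.41 for Ncl. Among small-subunit factors it was -1.12 for Utp20, -0.86 for Heatr1, -0.77 for Tsr1, -0.55 for Rrp12 and -0.53 for Noc4l. Among large-subunit factors it was -1.14 for Nle1, -0.96 for Nop2, -0.87 for Rrs1, -0.68 for Pes1, -0.67 for Ftsj3, -0.65 for Noc3l and -0.63 for Wdr12. Of these 23 calls, 18 were kept in every alternative apart from the minimum difference of 1.

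The apilimod difference changed from 7 to 22 h by 1.27 for Myc and 0.62 for Noc3l, and by -0.87 for Dkc1, -0.85 for Rrs1, -0.76 for Nolc1, -0.68 for Polr1b, -0.53 for Nop56, -0.52 for Gnl3, -0.43 for Ncl and -0.41 for Ddx21. Over those hours the apilimod difference became lower for 8.77% of all genes and higher for 11.3%. From 3 to 7 h the R848 difference of Myc changed by 0.89 and its apilimod difference by -0.89. These 3 to 7 h changes of Myc share the control arrays. Limma adjusted p-values of all these changes lay between 0.000145 (Nop58, R848) and 0.0451 (Polr1e, R848).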

How the results depend on the processing

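Counts of called members are total unless stated. The share of all genes called also changed with the fit. Where that share is not given, a count does not show whether members passed more often than other genes. With the R848 array alone as the control, R848 at 3 h had 3, both changes from 3 to 7 h had 0 and apilimod at 7 h had 1; with R848+API09 alone, R848 had 2 at 3 h and 7 at 7 h, and both changes from 3 to 7 h had 0. Without the R848+API09 array at 22 h, R848 had 1, 8 and 20 at 1, 3 and 7 h, and apilimod 2 and 12 at 3 and 7 h. With arrays centred on their medians, R848 had 1, 12 and 22 at 1, 3 and 7 h, and apilimod against medium 7 at 3 h and 11 at 7 h. Quantile normalization gave R848 1 at 1 h, 19 at 7 h and 2 for the change from 3 to 7 h, apilimod 11 at 7 h, and apilimod against medium 11 at 7 h; the 75th percentile filter also gave the last 11. A variance trend with robust fitting gave R848 1 at 1 h and 2 for the change from 3 to 7 h, and apilimod 1 at 3 h and 7 at 7 h. The mean over probe sets gave apilimod 1 at 3 h and reversed the R848 differences at 22 h of Ddx21 (-0.27), Rrp1b (-0.61) and Wdr43 (-0.19). A pseudocount of 1 left 0 for the apilimod change from 3 to 7 h and 1 for apilimod against medium at 3 h. A minimum difference of 1 left R848 1, 1 and 2 at 3, 7 and 22 h, apilimod 0 and 1 at 7 and 22 h, apilimod against medium 1, 1 and 11 at 3, 7 and 22 h, medium at 22 h 1, the R848 changes 0 (3 to 7 h) and 3 (7 to 22 h), and the apilimod changes 0 and 1. Leaving out a medium array at 0 h gave 10 for medium at 22 h with either, 6 for the apilimod change from 7 to 22 h, 0 for that from 3 to 7 h, and 1 and 3 for apilimod against medium at 3 and 7 h. Over hours, R848 alone against medium had 0 without the arrays of 3 h, 7 h or 22 h or without the hour block. The causes were not tested. Apart from the minimum difference, every alternative run kept 18 of the 24 calls of R848 at 22 h, 14 of the 17 of apilimod at 22 h and 1 of 4 at 7 h, that of Myc. No paired analysis was possible because the labels number replicates at 0 h only and each other arm and hour has 1 array; the block over hours was the hour, not a replicate.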
